A study of Mus musculus with 12 samples.

Results

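Mitochondrial ribosomal proteins were described through the mRNAs of 78 protein-coding genes, of 55536 genes in the deposited count table, whose symbols begin with Mrpl or Mrps followed by a number. By name, 49 belong to the large subunit and 29 to the small subunit, and they lie on 17 chromosomes. Members were picked by name only, and 5 pseudogenes with names of the same kind were left out. Earlier results of these data were known when the members were chosen. The samples were bulk RNA from mouse tumours of both genotypes and from muscle. Translocation tumours (n = 5) carried HprtCre, Ewsr1-loxP and Atf1-loxP, so that Cre from the Hprt locus can join the mouse Ewsr1 and Atf1 genes. Rosa26 tumours (n = 6) carried Rosa26-LSL-EWSR1-ATF1, a fusion transgene at the Rosa26 locus that Cre switches on, and the source of that Cre is not given in the labels. Skeletal muscle labelled WT was 1 library. The tumours were induced genetically without any drug, and each was taken for freezing once it had caused illness. The labelled genotype of the Rosa26 tumours holds no Cre, so how Cre reached them is not known and may differ between the groups. The labels give neither age nor strain, and do not say whether each tumour came from a separate mouse. The p-values therefore reflect only sample-to-sample spread, part of which may be technical.

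The mitochondrial ribosome translates the few mRNAs that the mitochondrial genome encodes, all of them for subunits of the respiratory chain and the ATP synthase. All of its proteins are encoded in the nucleus, made in the cytosol and imported, while its rRNAs are mitochondrial. Some of these proteins have counterparts in bacterial ribosomes and the others are particular to mitochondria. Muscle is rich in mitochondria. EWSR1 fused to ATF1 is the defining oncogene of clear cell sarcoma, a soft tissue cancer that expresses melanocyte genes.

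Promoter sequence was not used in the choice by name. RefSeq windows on GRCm38.p6, from 250 bases before to 50 bases after each start, were found for 69 of the 78 genes. The string CCGGAAG, the core that ETS factors such as GABP bind, stood on either strand in 26 of the 69 windows (37.7%), against 12.9% of 17491 protein-coding genes. The string GCATGCGC, the core bound by NRF1, stood in 8 windows (11.6%), against 3.93% of genes, and ATGGCGG, the core bound by YY1, in 13 (18.8%), against 6.05% of genes. A longer NRF1 string that contains the core stood in 3 windows (4.35%), against 1.47% of genes, and a longer YY1 string in 5 (7.25%), against 1.06%. At least 1 of the 3 shorter strings was present in 37 windows (53.6%), against 20.4% of genes, while the median GC content was 58.3% in the members' windows and 56.3% in the windows of all genes. NRF1 and GABP are known as activators of nuclear genes for mitochondrial proteins. A match is a description of the letters and not a measured binding site. Windows of 160 bases, 130 before and 30 after the start, are given for 5 members that were higher in translocation tumours. Capitals mark the core bound by ETS factors in Mrps26 and Mrpl57, the core bound by NRF1 in Mrpl17, and both in Mrpl33. The window of Mrpl41 holds none of the strings and is given for contrast.
Mrps26, chr2:130563627-130563786, plus strand: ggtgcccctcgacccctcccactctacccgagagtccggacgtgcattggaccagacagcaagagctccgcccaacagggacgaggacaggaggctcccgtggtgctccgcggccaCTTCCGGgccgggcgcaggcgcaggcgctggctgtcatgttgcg
Mrpl57, chr14:57826109-57826268, plus strand: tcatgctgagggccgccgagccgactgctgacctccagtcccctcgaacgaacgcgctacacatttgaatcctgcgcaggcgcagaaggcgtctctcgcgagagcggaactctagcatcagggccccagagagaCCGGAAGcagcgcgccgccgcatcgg
Mrpl17, chr7:105811058-105811217, minus strand: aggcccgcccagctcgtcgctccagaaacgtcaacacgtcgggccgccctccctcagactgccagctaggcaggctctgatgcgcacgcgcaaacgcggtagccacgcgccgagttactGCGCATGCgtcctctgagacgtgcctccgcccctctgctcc
Mrpl33, chr5:31613821-31613980, plus strand: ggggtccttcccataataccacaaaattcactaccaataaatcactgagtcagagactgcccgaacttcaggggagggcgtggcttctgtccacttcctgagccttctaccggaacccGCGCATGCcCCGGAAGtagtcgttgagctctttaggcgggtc
Mrpl41, chr2:24975069-24975228, minus strand: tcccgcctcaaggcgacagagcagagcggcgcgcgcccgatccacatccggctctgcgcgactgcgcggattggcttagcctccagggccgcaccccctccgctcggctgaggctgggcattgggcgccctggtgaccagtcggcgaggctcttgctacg
GCGCATGC and CTTCCGG are the NRF1 and ETS cores read on the other strand. The marked strings of Mrps26 and Mrpl17 and the first of Mrpl33 lie in the last bases before the start, the second of Mrpl33 spans it, and that of Mrpl57 lies just past it. The longer windows of the called members Mrpl20 and Mrps24 held none of the strings.

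Depth and composition differed between libraries. Total counts were 2963088 to 21248636 in translocation tumours, 6817005 to 21493629 in Rosa26 tumours and 25037628 in the muscle. Translocation tumour 2 drew 37.8% of its counts from 3 genes that hold ribosomal sequence and Rosa26 tumour 4 drew 30%, a share of 0.758% to 7.38% elsewhere. Sex read from the RNA was female in 4 translocation tumours and male in tumour 5, and female in 2 and male in 4 Rosa26 tumours. Translocation tumour 5 stood apart, so results are given with and without it. CPM are counts scaled to equal library size, here with TMM factors over the 12 libraries, which balance the libraries for composition. On this scale a sum is not a share of a library's counts. The summed level of 12 mitotic genes in tumour 5 was 2034 CPM. It was at most 278 CPM in the other translocation tumours and 404 CPM in Rosa26 tumours. The summed level of 8 melanocyte markers in tumour 5 was 941 CPM, against at most 69.0 CPM and 62.3 CPM. Of those 8 markers Mlana was listed at 0 in every tumour. Skeletal muscle markers, 17 genes that define muscle fibres, summed to 597871 CPM in the muscle, to 25.5 to 7937 CPM in translocation tumours and to 24.8 to 89774 CPM in Rosa26 tumours. The titles of translocation tumours 2 and 5 share a number, those of Rosa26 tumours 5 and 6 are consecutive, and the titles of translocation tumour 1 and the muscle share a number as well.

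Both subunits were higher in translocation tumours. CPM here are again scaled with TMM factors over the 12 libraries, unless total counts are named. Summed over the large subunit genes, translocation tumours 1 to 5 had 1415, 1181, 1343, 1300 and 3429 CPM, against a lowest, median and highest value of 593, 791 and 1146 CPM in Rosa26 tumours. Summed over the small subunit genes, translocation tumours 1 to 5 had 734, 659, 619, 626 and 1449 CPM, against 297, 388 and 511 CPM in Rosa26 tumours. No translocation tumour lay in the range of the Rosa26 tumours for either subunit, and tumour 5 lay far above the other 4. Scaled by total counts alone, tumour 2 lay inside the Rosa26 range, at 911 CPM for the large and 508 CPM for the small subunit, against at most 1173 and 538 CPM in Rosa26 tumours, and the other 4 stayed above it. The sum of all 78 genes averaged 2551 ± 1306 CPM in translocation tumours (SD, n = 5), or 1969 ± 130 CPM without tumour 5 (SD, n = 4), against 1237 ± 263 CPM in Rosa26 tumours (SD, n = 6). That is 2.06-fold, or 1.59-fold without tumour 5. The large subunit genes made 2.07 ± 0.22 times the CPM of the small subunit genes in translocation tumours and 2.07 ± 0.09 times in Rosa26 tumours (SD), with 2.01 in the muscle. In bulk tissue fewer cells of a type and less RNA per cell cannot be told apart.

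**Figure D1:**
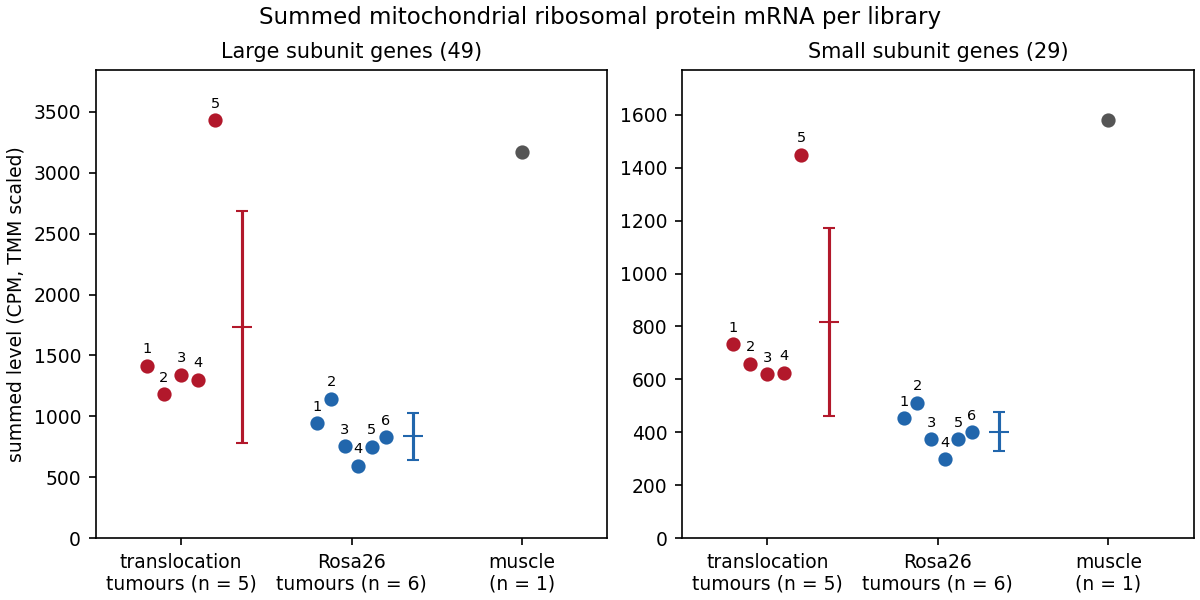
Summed CPM (TMM scaled) of the 49 large subunit genes (left) and 29 small subunit genes (right) in each library; numbers are replicate numbers, and bars are mean and SD. On this scale every translocation tumour lies above every Rosa26 tumour, and translocation tumour 5, at 3429 and 1449 CPM, lies near the muscle at 3172 and 1579 CPM; scaled by total counts, tumour 2 overlaps the Rosa26 tumours and the muscle is at 1298 and 646 CPM.

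Gene by gene, all 78 log2 fold changes of translocation over Rosa26 tumours were above 0, although few passed the test. All 78 genes had enough counts to be tested among 17021 genes. In edgeR's quasi-likelihood test at an adjusted p of 0.05, 8 rose and 0 fell, where 1.14% of all genes rose and 1.56% fell. The 8 were the small subunit genes Mrps26, Mrps28 and Mrps24 and the large subunit genes Mrpl41, Mrpl57, Mrpl33, Mrpl20 and Mrpl17. A further 31 members had an edgeR adjusted p between 0.05 and 0.1. At an unadjusted p under 0.05, 58 were higher, where 14.3% of all genes were, and 0 lower, and neither DESeq2 nor limma voom called a member lower. The median log2 fold change was 1.06 over the members and 0.066 over all genes, of which 53.2% were positive. It was 1.06 over the large subunit (5 of 49 called) and 0.98 over the small subunit (3 of 29 called). Over 45 genes with a bacterial counterpart it was 1.06 (5 called), and over 31 genes particular to mitochondria 1.01 (3 called). Mrpl55 and Mrps36 were placed in neither class. The groups did not overlap, with every translocation tumour higher, for 19 members, 12 of the large and 7 of the small subunit, where this held for 2.44% of all genes. It held without tumour 5 for 19 members too, where it held for 3.4% of all genes.

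Without translocation tumour 5 the difference was smaller and 9 members rose, where 1.68% of 17433 genes rose and 2.59% fell. No member fell, and at an unadjusted edgeR p under 0.05, 43 were higher, where 11.1% of all genes were, and 0 lower. Of the 8 genes, 6 were still called (Mrps26, Mrps28, Mrps24, Mrpl41, Mrpl57 and Mrpl33), and Mrpl15, Mrps16 and Mrpl58 were called as well. The median log2 fold change was 0.66 over the members and -0.0027 over all genes, and 75 members stayed above 0. The 3 below 0 were Mrps2 at -0.30, Mrps5 at -0.12 and Mrpl45 at -0.086, none of them called. The calls also rested on other libraries. Of 11 fits with 1 tumour left out, only Mrps26 was called in all, and it alone was called without translocation tumour 1 or without Rosa26 tumour 3, 5 or 6. Mrps28, Mrpl41 and Mrpl57 were called in 7 of the 11, Mrpl33 in 6, Mrpl20 in 4, Mrps24 in 3 and Mrpl17 in 2. The count was 5 without Rosa26 tumour 1, 4 without Rosa26 tumour 4 and 1 with Rosa26 tumours 5 and 6 summed. The DESeq2 Wald test called 40 members higher, where it called 7.56% of all genes, and gave 6 members no adjusted p. limma voom called 43, where it called 7.36% of all genes.

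**Figure D2:**
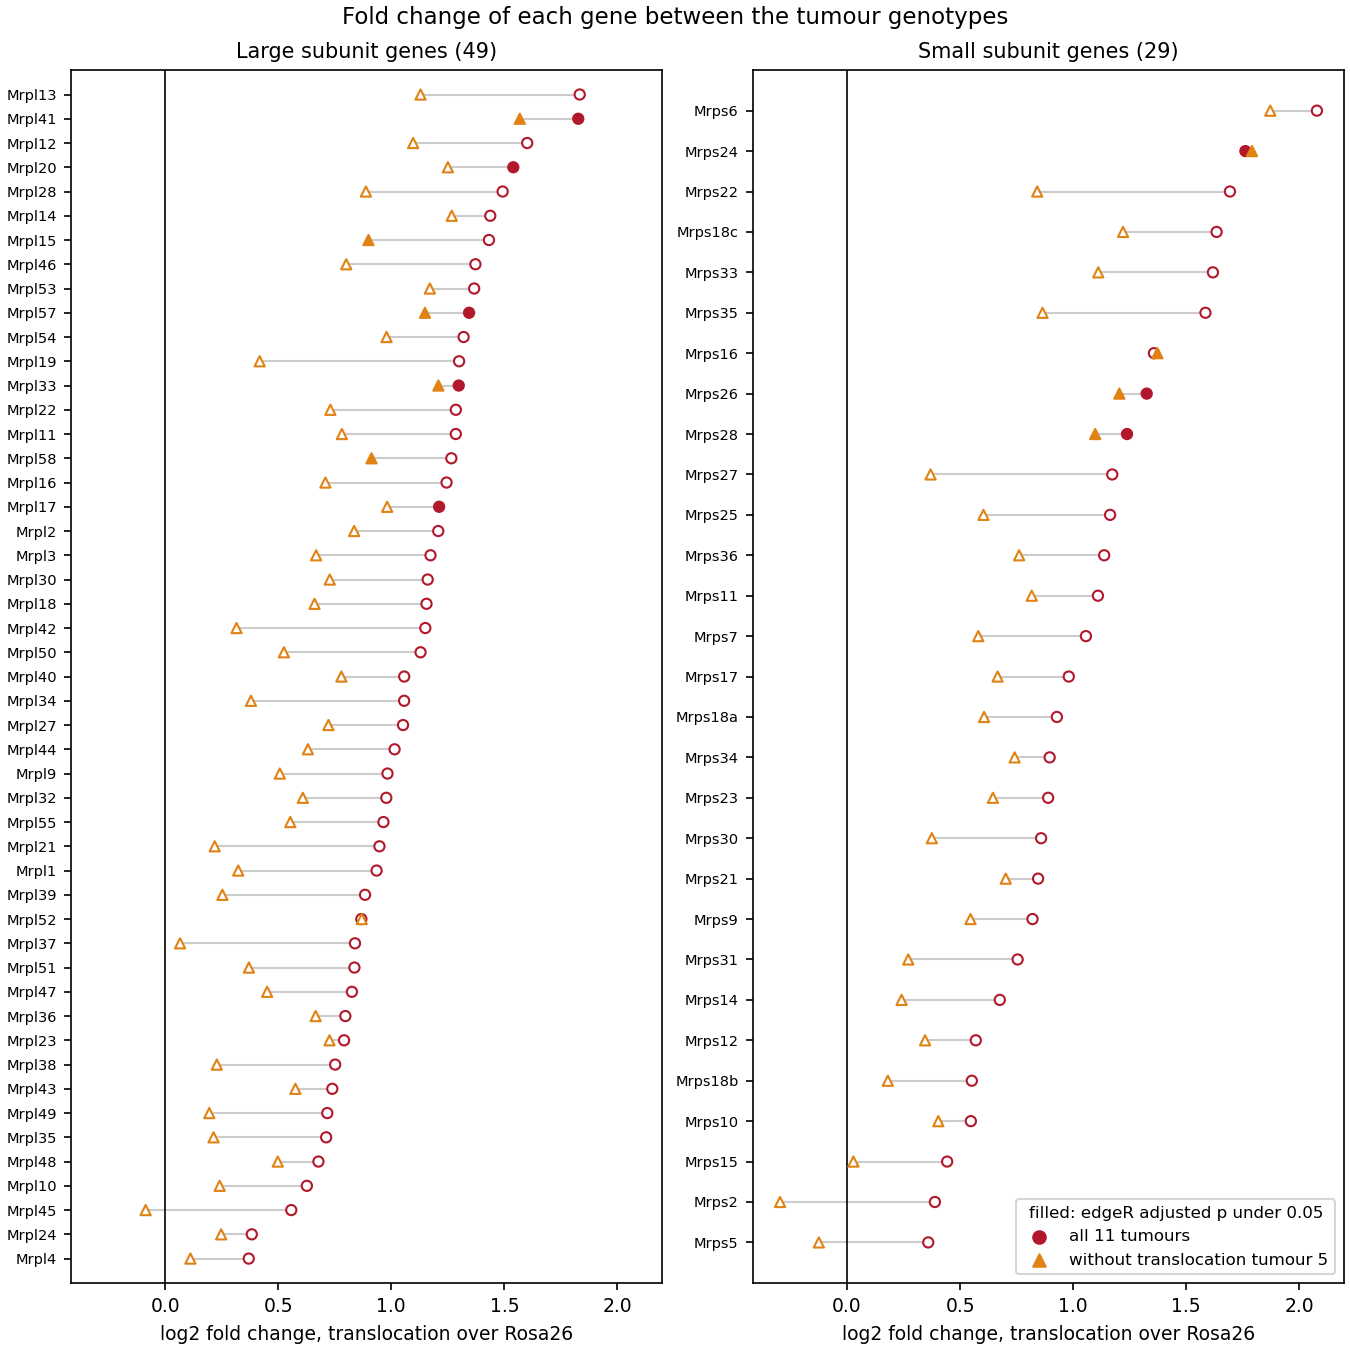
Log2 fold change of translocation over Rosa26 tumours (horizontal axis) for each gene, with all 11 tumours (circles) and without translocation tumour 5 (triangles); filled symbols passed an edgeR adjusted p of 0.05. With all tumours the values run from 0.36 for Mrps5 to 2.08 for Mrps6, and without tumour 5 nearly all lie nearer to 0.

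Mrps26, a small subunit protein particular to mitochondria, had the smallest adjusted p of the members. It had 48.0, 38.9, 54.5, 52.2 and 68.9 CPM in translocation tumours 1 to 5, against 17.6, 21.6 and 25.6 CPM (lowest, median and highest) in Rosa26 tumours. The lowest translocation tumour exceeded the highest Rosa26 tumour. The log2 fold change was 1.33 (SE 0.21, edgeR adjusted p = 0.0123), and 1.20 (SE 0.18, edgeR adjusted p = 0.0112) without tumour 5. The gene lies on chromosome 2 (130563742 to 130568695, plus strand).

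Mrps28 and Mrps24, both with bacterial counterparts, also rose. Mrps28 had 21.5, 26.7, 25.9, 25.5 and 37.0 CPM in translocation tumours, against 8.69, 10.9 and 17.6 CPM in Rosa26 tumours. Its translocation values were close together and apart from the Rosa26 values, and the log2 fold change was 1.24 (SE 0.26, edgeR adjusted p = 0.0313). Mrps24, whose bacterial counterpart helps to guide the mRNA into the ribosome, had 39.4, 108, 19.9, 23.9 and 41.4 CPM in translocation tumours, against 11.05, 13.3 and 18.0 CPM in Rosa26 tumours. Tumour 2, the library with the fewest counts, was its highest, and tumour 3 lay only just above the Rosa26 tumours. The log2 fold change was 1.76 (SE 0.42, edgeR adjusted p = 0.0468), and the call held in only 3 of the 11 fits with 1 tumour left out, not in the one without tumour 2.

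Among the large subunit genes, Mrpl41, a protein particular to mitochondria, had the largest fold change of the called members. It had 39.3, 26.7, 30.6, 27.1 and 60.5 CPM in translocation tumours, against 4.55, 10.2 and 18.1 CPM in Rosa26 tumours. The groups did not overlap, and the log2 fold change was 1.83 (SE 0.36, edgeR adjusted p = 0.0274). Mrpl57, also particular to mitochondria, had 36.8, 21.9, 29.01, 23.3 and 47.3 CPM in translocation tumours, against 8.04, 12.4 and 16.7 CPM in Rosa26 tumours. Its lowest translocation value, in tumour 2, was above every Rosa26 value, and the log2 fold change was 1.34 (SE 0.28, edgeR adjusted p = 0.0321).

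The other 3 called large subunit genes have bacterial counterparts. Mrpl33 had 101, 71.3, 45.4, 56.8 and 89.6 CPM in translocation tumours, against 21.1, 29.5 and 41.1 CPM in Rosa26 tumours. It was 1 of the 8 members for which tumour 5 was not the highest tumour, and its log2 fold change was 1.30 (SE 0.27, edgeR adjusted p = 0.0332). Mrpl20, whose bacterial counterpart is needed early in large subunit assembly, had 56.4, 49.9, 40.8, 43.3 and 98.7 CPM in translocation tumours, against 8.74, 18.9 and 37.9 CPM in Rosa26 tumours. The highest Rosa26 tumour came close to the lowest translocation tumour. The log2 fold change was 1.54 (SE 0.36, edgeR adjusted p = 0.0446), and without tumour 5 it was 1.25 (edgeR adjusted p = 0.0540). Mrpl17 had 73.6, 67.8, 61.0, 61.3 and 121 CPM in translocation tumours, against 22.6, 30.5 and 58.4 CPM in Rosa26 tumours. The gap between the groups was again small, and the log2 fold change was 1.21 (SE 0.28, edgeR adjusted p = 0.0466), or 0.98 (edgeR adjusted p = 0.0525) without tumour 5.

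Mrps16, Mrpl15 and Mrpl58 passed when tumour 5 was left out and lay just past the threshold with it. Mrps16, with a bacterial counterpart, had 59.6, 70.0, 41.9, 59.0 and 53.2 CPM in translocation tumours, against 10.49, 20.7 and 44.8 CPM in Rosa26 tumours. Translocation tumour 3 lay below the highest Rosa26 tumour, and tumour 5 was not the highest. The log2 fold change was 1.37 (SE 0.35, edgeR adjusted p = 0.0494) without tumour 5 and 1.36 (edgeR adjusted p = 0.0505) with it. Mrpl58, a ribosome-bound peptidyl-tRNA hydrolase that is known to rescue stalled mitochondrial ribosomes, had 26.5, 15.3, 24.3, 24.9 and 53.9 CPM in translocation tumours, against 9.88, 11.8 and 17.0 CPM in Rosa26 tumours. Mrpl15 had 43.4, 62.6, 37.0, 36.9 and 143 CPM in translocation tumours, against 20.05, 23.5 and 33.0 CPM in Rosa26 tumours. Without tumour 5 the log2 fold change was 0.91 (SE 0.23, edgeR adjusted p = 0.0498) for Mrpl58 and 0.90 (SE 0.22, edgeR adjusted p = 0.0476) for Mrpl15. With tumour 5 it was 1.27 (edgeR adjusted p = 0.0508) for Mrpl58 and 1.43 (edgeR adjusted p = 0.0554) for Mrpl15.

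Several members with large fold changes did not pass. Mrps6, a small subunit protein with a bacterial counterpart, had the highest log2 fold change, 2.08 (SE 0.63, edgeR adjusted p = 0.0792). Its values were 82.9, 20.6, 5.76, 12.6 and 53.4 CPM in translocation tumours, against 3.50, 8.31 and 16.01 CPM in Rosa26 tumours, so that the groups overlapped and translocation tumour 3 lay below the Rosa26 median. Mrpl13 averaged 76.9 ± 68.4 CPM in translocation tumours (SD, n = 5) and 22.3 ± 7.36 CPM in Rosa26 tumours (SD, n = 6), with 195 CPM in tumour 5, and its log2 fold change was 1.83 (edgeR adjusted p = 0.0624). Mrpl12, the protein of the stalk that recruits translation factors, did not overlap between the groups, at 64.1, 77.0, 35.3, 35.0 and 161 CPM in translocation tumours, against 17.6, 25.3 and 34.5 CPM in Rosa26 tumours, and its log2 fold change was 1.601 (edgeR adjusted p = 0.0535). Mrps22 had a log2 fold change of 1.69 with tumour 5 (edgeR adjusted p = 0.0809) and 0.84 without it (edgeR adjusted p = 0.154).

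The smallest fold changes were those of Mrps5, Mrpl4, Mrpl24 and Mrps2, none of them called. Mrps5, the counterpart of a bacterial protein at the mRNA entry, had 12.5, 14.0, 16.6, 13.2 and 41.3 CPM in translocation tumours, against 14.2, 15.98 and 17.1 CPM in Rosa26 tumours. Apart from tumour 5, the translocation tumours lay within or below the Rosa26 range. Mrps2 showed the same, with 10.2, 9.19, 13.1, 11.3 and 43.6 CPM in translocation tumours, against 10.1, 13.8 and 17.3 CPM in Rosa26 tumours. The log2 fold changes with tumour 5 were 0.36 (SE 0.33) for Mrps5 and 0.39 (SE 0.41) for Mrps2. Those of Mrpl4 (0.37), Mrpl24 (0.38), Mrps15 (0.44) and Mrps10 (0.55) were also low, and Mrps12, whose bacterial counterpart lies at the decoding site, was at 0.57 (SE 0.27, edgeR adjusted p = 0.212). These are differences that 11 tumours did not resolve, not evidence that the levels are equal.

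None of the 3 Mrps18 paralogs, which hold separate places in the mitochondrial ribosome, was called. Their CPM are not set per length, so they do not compare levels between these genes. Mrps18c averaged 28.9 ± 16.9 CPM in translocation tumours and 9.61 ± 5.03 CPM in Rosa26 tumours, and the log2 fold change was 1.63 (SE 0.53, edgeR adjusted p = 0.0951). Mrps18a, a protein of the large subunit despite its name, averaged 29.5 ± 13.4 CPM and 15.99 ± 3.51 CPM in the same order, and the log2 fold change was 0.93 (SE 0.29, edgeR adjusted p = 0.0856). Since the subunits were assigned by name, Mrps18a and Mrps36 were counted with the small subunit in the sums, ratio and medians. Other members may also be placed wrongly by their names. Mrps18b averaged 9.96 ± 5.06 CPM in translocation tumours and 7.03 ± 1.11 CPM in Rosa26 tumours, and the log2 fold change was 0.55 (SE 0.33, edgeR adjusted p = 0.317). Mrps36, now known as a component of the 2-oxoglutarate dehydrogenase complex and not of the ribosome, averaged 4.64 ± 2.77 CPM in translocation tumours and 2.20 ± 0.57 CPM in Rosa26 tumours, with a log2 fold change of 1.14 (edgeR adjusted p = 0.143). It and Mrpl23 and Mrpl48 have processed pseudogenes of the same name, so reads may be shared with these copies.

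Translocation tumour 5 was the highest of the 11 tumours for 70 of the 78 members, 44 of the large and 26 of the small subunit. Over the members its log2 CPM exceeded the mean of translocation tumours 1 to 4 by a median of 1.45, against -0.12 over all genes. At the other end Rosa26 tumour 4 was the lowest of the 11 tumours for 48 members. The shares of all genes with tumour 5 highest or Rosa26 tumour 4 lowest are not given, so these counts have no background. The genes for which tumour 5 was not highest were Mrpl23, Mrpl33, Mrpl36, Mrpl52, Mrpl53, Mrps6, Mrps16 and Mrps24, chosen for naming after their values were seen. Tumour 5 was also the tumour with the highest mitotic gene sum and the only male one of its genotype, and the part of either in its levels was not tested. With sex as a covariate edgeR called 52 members higher, where it called 9.11% of all genes. Without tumour 5, where the remaining 4 translocation tumours were all female, the same fit called 0 members and 0.126% of all genes higher. At an unadjusted p under 0.05 it had 36 members higher, where 10.1% of all genes were, and 0 lower, with a median log2 fold change of 0.80 over the members.

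**Figure D3:**
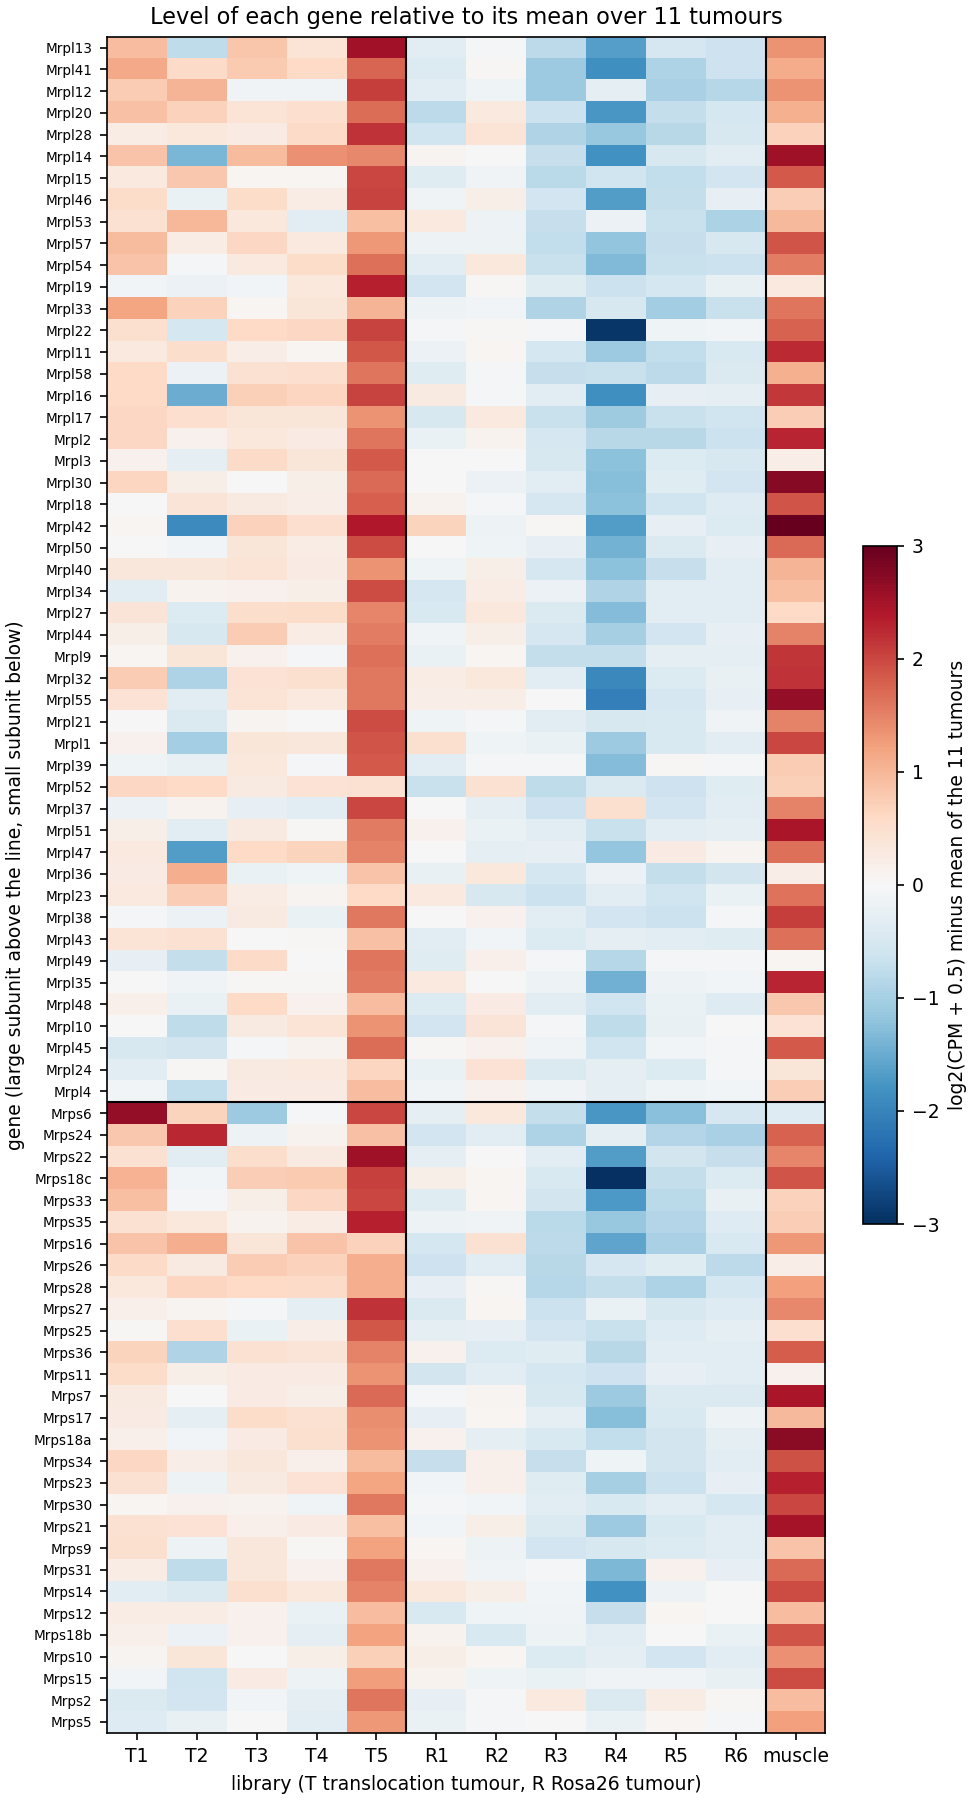
Log2(CPM + 0.5) of each gene minus its mean over the 11 tumours (colour), for translocation tumours T1 to T5, Rosa26 tumours R1 to R6 and muscle; genes are ordered by fold change within the large (above) and small (below) subunit. Tumour T5 is the highest tumour for 70 of 78 genes and R4 the lowest for 48.

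The length of the mRNAs moved with the genotype and stood beside the result. These mRNAs are short, with a median of 1302 bases for the principal transcript. The share of protein-coding counts from mRNAs of up to 1500 bases was 13.3% to 20.8% in translocation tumours, 6.59% to 11.98% in Rosa26 tumours and 16.4% in the muscle, so the tumour genotypes did not overlap. Among other protein-coding genes the median log2 fold change was 1.19 for mRNAs of up to 750 bases (n = 350) and -0.37 for those over 5000 bases (n = 2814). The members were close to other genes of the shortest class, at 1.22 (n = 12), and above them in the longer classes, with 1.04 against 0.60 at 1000 to 1500 bases (n = 22 and 1237) and 0.96 against -0.072 at 3000 to 5000 bases (n = 14 and 4397). Without tumour 5 the members' medians were 0.82 against 0.77 in the shortest class (n = 12 and 367), 0.73 against 0.67 for 750 to 1000 bases (n = 13 and 426) and 0.47 against -0.15 for 3000 to 5000 bases (n = 14 and 4440).

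With the relation to length taken into the fit as an offset in each library, 4 members were called higher, Mrps26, Mrpl17, Mrpl57 and Mrpl41, where 0.529% of all genes were, and 77 members were above 0. The median log2 fold change was then 0.81 over the members and 0.13 over all genes, or 0.36 and 0.012 without tumour 5, where 6 members were called higher, against 1.04% of all genes, and 65 were above 0. Mrps26 was at 1.55 (edgeR adjusted p = 0.0113) and Mrpl17 at 1.73 (edgeR adjusted p = 0.0415), while Mrps28 was at 0.72 (edgeR adjusted p = 0.127) and Mrpl33 at 0.67 (edgeR adjusted p = 0.148).

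**Figure D4:**
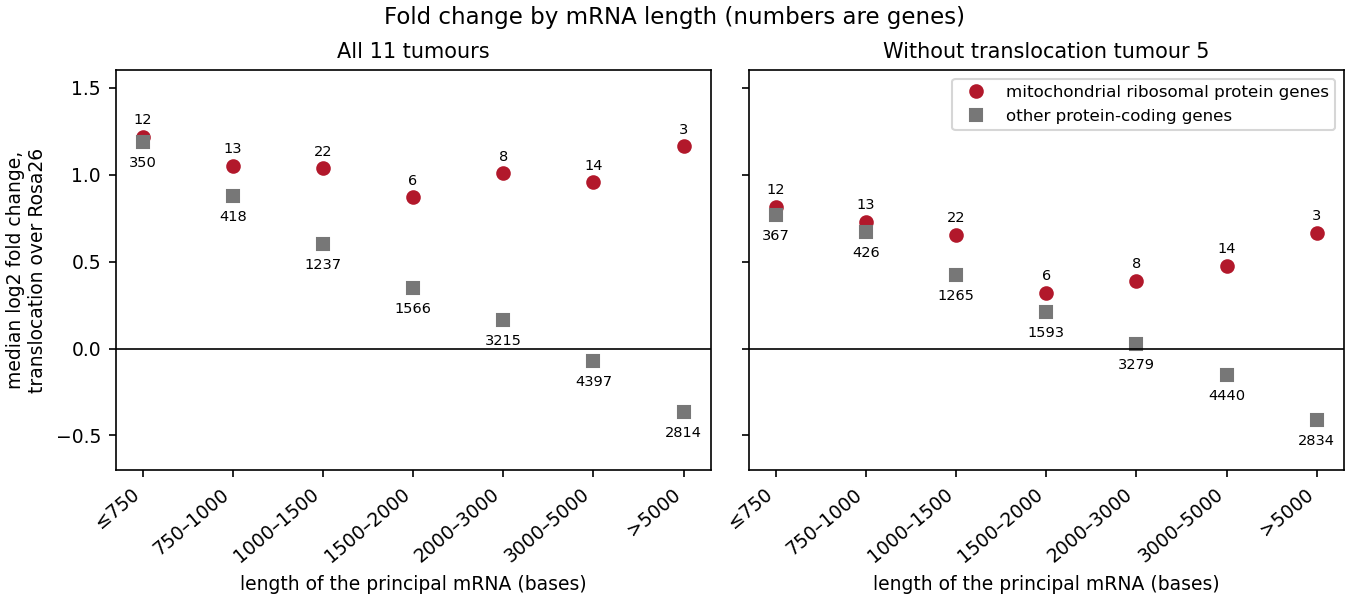
Median log2 fold change of translocation over Rosa26 tumours (vertical axis) by length of the principal mRNA in bases, for mitochondrial ribosomal protein genes (circles) and other protein-coding genes (squares), with all tumours (left) and without translocation tumour 5 (right); numbers are genes. The medians of other genes decrease with length, while those of the members do not fall below 0.87 with all tumours and 0.32 without tumour 5.

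Other genes of mitochondrial translation were read in the same fit. For the counts here and in the next paragraph, the shares of all genes higher with all tumours were 1.14% by edgeR and 7.56% by DESeq2. They were 7.36% by limma voom and 14.3% at an unadjusted edgeR p under 0.05. Of 5 proteins of the mitochondrial ribosome that carry other names, Aurkaip1 rose, with 54.3 ± 7.63 CPM in translocation tumours and 29.8 ± 6.10 CPM in Rosa26 tumours (SD, log2 fold change 0.91, edgeR adjusted p = 0.0431). The median of the 5 was 1.16, and 0.70 without tumour 5. With all tumours, DESeq2 and limma voom each called 3 of the 5 higher. At an unadjusted edgeR p under 0.05, 4 were higher, with 0 lower by any of these. Of 26 assembly and rRNA modification factors, 1 rose and 0 fell, with a median of 0.58. It was Mrm1, an enzyme that methylates the mitochondrial large subunit rRNA, at 26.2, 90.6, 24.8, 70.6 and 57.8 CPM in translocation tumours, against 9.42, 10.48 and 11.7 CPM in Rosa26 tumours. The groups did not overlap, and the log2 fold change was 2.39 (SE 0.35, edgeR adjusted p = 0.0111). Without tumour 5 the median of the 26 factors was 0.39, and 2 rose and 0 fell. With all tumours, DESeq2 called 3 of the 26 higher and limma voom 5. At an unadjusted edgeR p under 0.05, 8 were higher, with 0 lower by any of these. None of 15 translation factors (median 0.51), 20 aminoacyl-tRNA synthetases (0.41), 12 regulators of mitochondrial biogenesis (0.27) or 10 mitochondrially encoded proteins (0.42) was called in either direction by edgeR. At an unadjusted edgeR p under 0.05, 5, 2, 1 and 1 genes of these sets were higher, and 1 of the regulators was lower. DESeq2 called 1 translation factor higher and no gene of the other 3 sets, and limma voom called 2 translation factors higher and 1 regulator each way. Without tumour 5 the edgeR medians of these sets, in the same order, were 0.31, 0.056, 0.015 and 0.26, with none called. With length offsets and all tumours they were 0.44, 0.52, 0.44 and -0.0021.

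Nuclear respiratory chain and cytosolic ribosome genes, whose mRNAs are also short, had medians above that of all genes. Nuclear subunits of the respiratory chain, which assemble with the products of the mitochondrial ribosome, had 17 of 80 genes higher and 0 lower, with a median of 1.31, or 0.96 without tumour 5. Uqcr10, a subunit of complex III, averaged 190 ± 86.9 CPM in translocation tumours and 36.4 ± 15.8 CPM in Rosa26 tumours (SD, log2 fold change 2.43, edgeR adjusted p = 0.0117). Cytosolic ribosomal proteins had 5 of 83 genes higher and 0 lower, with a median of 1.38, or 0.85 without tumour 5. The median mRNA was 849.5 bases long in the respiratory chain set and 878 bases in the cytosolic set, and the medians with the length offset were 0.90 and 0.96. DESeq2 called 54 respiratory chain and 58 cytosolic genes higher and limma voom 57 and 35, while 68 and 75 were higher at an unadjusted edgeR p under 0.05, with 0 lower in each.

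Markers of other cell types were read beside these results. None of the 17 skeletal muscle, 10 macrophage, 8 fibroblast, 6 erythroid, 4 melanocyte, 3 epidermal or 12 mitotic genes tested, nor the 1 adipocyte gene, passed edgeR's test in either direction with all tumours. At an unadjusted edgeR p under 0.05 these were 6 erythroid, 2 melanocyte and 4 mitotic genes higher and 1 fibroblast and 1 epidermal gene lower. DESeq2 called 1 fibroblast and 1 epidermal gene lower, and limma voom called 4 erythroid, 1 fibroblast and 1 epidermal gene higher and 1 epidermal gene lower. Of 8 T and NK cell markers Cd3e fell (log2 fold change -4.93, edgeR adjusted p = 0.0413, or 0.0557 without tumour 5), and Gzma was at 4.13 (edgeR adjusted p = 0.0560, or 0.0364 without tumour 5). Of 9 endothelial markers Erg fell (log2 fold change -2.93, edgeR adjusted p = 0.0367), and Kdr was at 1.78 (edgeR adjusted p = 0.0686). At an unadjusted edgeR p under 0.05, 1 T and NK cell marker was higher and 3 lower, and 1 endothelial marker was higher and 6 lower. DESeq2 called 1 higher and 3 lower in each of these lists, and limma voom called 1 lower in each and 1 endothelial marker higher. Summed macrophage markers ranged from 613 to 3508 CPM in translocation tumours and from 929 to 2685 CPM in Rosa26 tumours, and erythroid markers from 151 to 11372 CPM and from 2.62 to 1003 CPM. With the skeletal muscle markers as a covariate 5 members were called, with a median log2 fold change of 1.06. The part of the other cell types in the result was not tested.

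Set against the muscle, the members were lower in the tumours on the TMM scale, and this depended on the scaling. The muscle is 1 library, so these are differences without a test, and both tumour groups share it. In translocation tumours 31 members were at least 2-fold lower with every tumour below the muscle, where 19.5% of all genes were, and 0 were at least 2-fold higher, where 20% of all genes were. In Rosa26 tumours 66 members were at least 2-fold lower, where 23.4% of all genes were, and 0 were at least 2-fold higher, where 31.1% of all genes were. The median log2 difference was -1.02 in translocation tumours, or -1.30 without tumour 5, and -1.97 in Rosa26 tumours, against 0.30 and 0.36 over all genes. Scaled by total counts, the members' medians were 0.34 in translocation tumours and -0.54 in Rosa26 tumours, against 1.23 and 1.37 over all genes. Relative to the median of all genes the members differed by -1.32 on the TMM scale and -0.89 on total counts in translocation tumours. In Rosa26 tumours the values were -2.33 and -1.91 in the same order. Scaling shifts all genes of a library alike apart from the prior count, so that both scalings gave lower members is not separate evidence. Tumour 5 exceeded the muscle for 41 members on the TMM scale.

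The members farthest below the muscle on the TMM scale included Mrpl42, a large subunit protein particular to mitochondria, with 34.6 ± 35.3 CPM in translocation tumours and 16.1 ± 7.64 CPM in Rosa26 tumours (SD), against 176 CPM in the muscle. Mrpl30 averaged 43.7 ± 25.6 CPM and 20.2 ± 5.52 CPM in the same order, against 182 CPM in the muscle, and Mrps18a had 135 CPM in the muscle, above every tumour. The log2 differences from the muscle, translocation tumours first, were -2.96 and -3.60 for Mrpl42, -2.21 and -3.22 for Mrpl30, -2.29 and -3.10 for Mrps18a, -2.20 and -3.15 for Mrpl55 and -1.93 and -3.16 for Mrpl14. At the other end stood Mrps6, at 1.24 and -0.34, Mrps26 at 0.48 and -0.79, Mrps11 at 0.39 and -0.59, Mrpl3 at 0.34 and -0.64 and Mrpl49 at 0.19 and -0.27. On the TMM scale only Mrps26 and Mrps11 had every translocation tumour above the muscle, which had 37.0 CPM and 11.03 CPM in the muscle library.

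**Figure D5:**
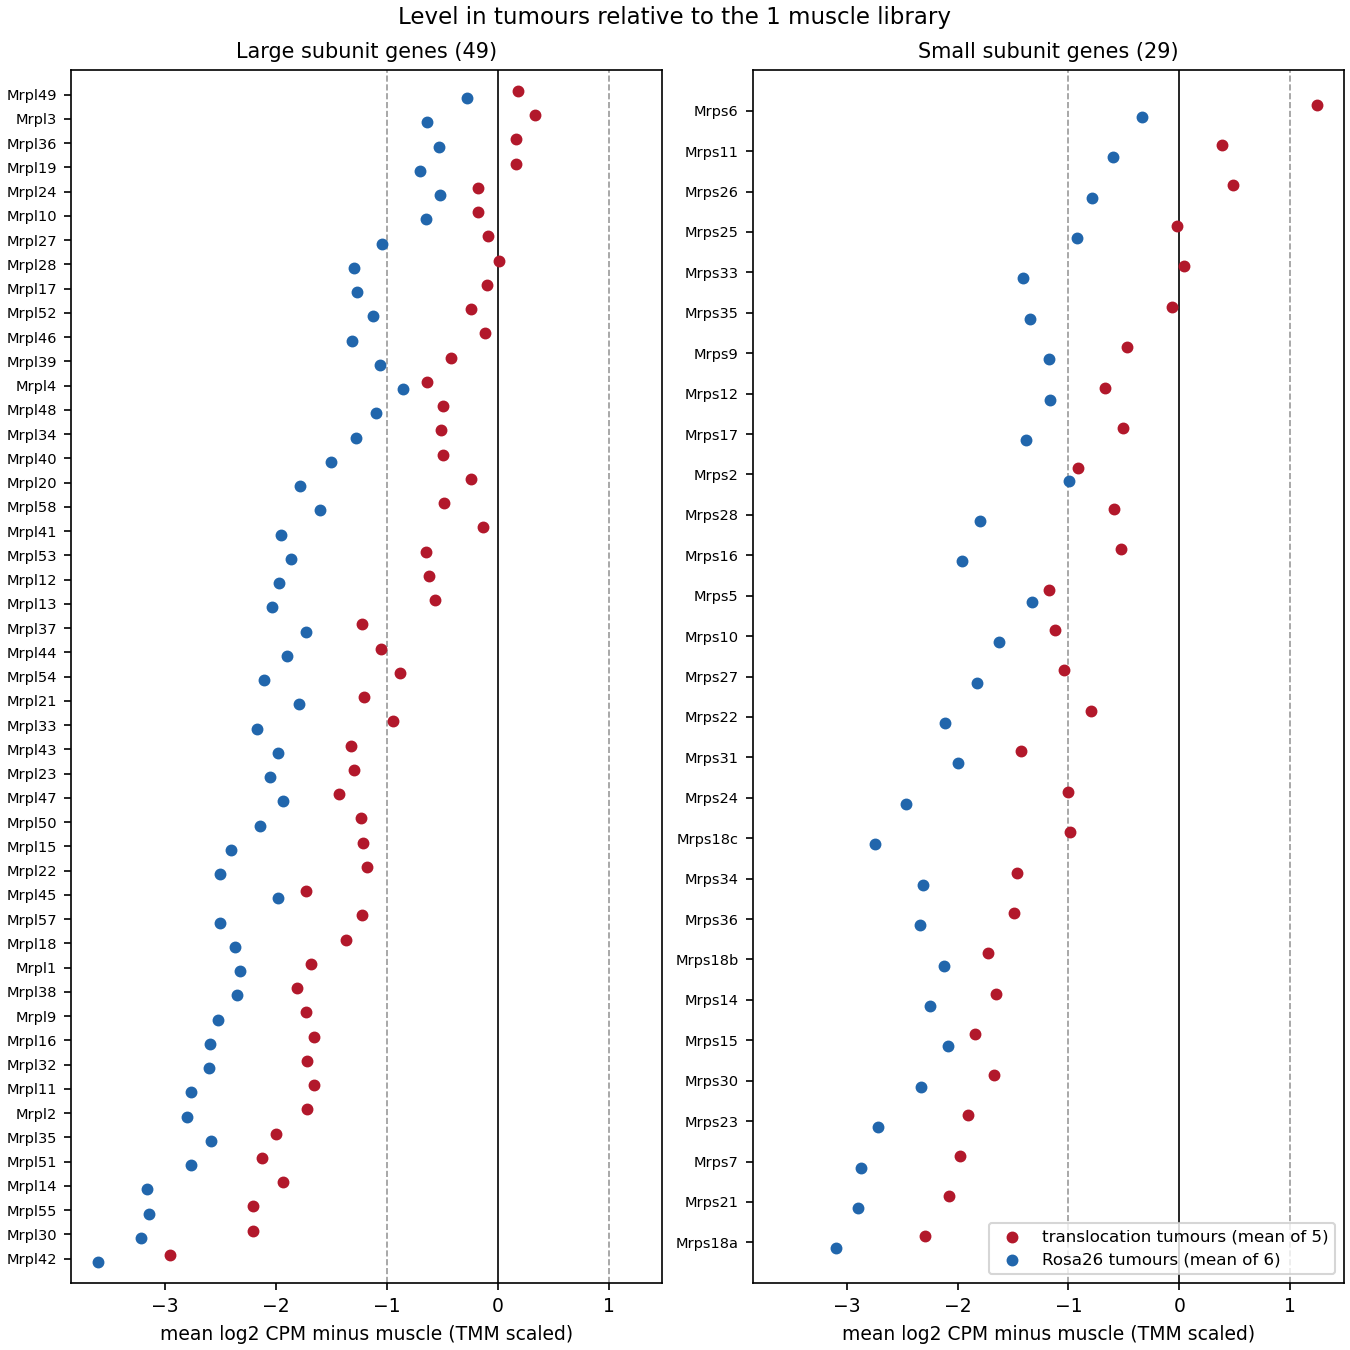
Mean log2 CPM (TMM scaled) of each gene in translocation tumours (mean of 5) and Rosa26 tumours (mean of 6) minus that of the 1 muscle library; dashed lines mark a 2-fold difference. On this scale most genes lie left of 0 in both genotypes; scaled by total counts the median of the translocation tumours was above 0, at 0.34.

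Per length of exon, levels over the 11 tumours spanned 34.3-fold between the highest and lowest member, or 80.9-fold with the length of the principal transcript in place of all exons, and 6.27-fold between the 90th and 10th percentiles. The highest large subunit members, in TPM (levels per length, scaled to a common total per library) computed from the counts and the union of exons, were Mrpl28 at 95.4 TPM in translocation tumours and 40.3 TPM in Rosa26 tumours, Mrpl54 at 88.1 and 44.1 TPM and Mrpl12 at 77.0 and 32.4 TPM. The highest small subunit members were Mrps21 at 56.1 and 43.4 TPM, Mrps28 at 58.9 and 31.4 TPM and Mrps18c at 49.3 and 20.5 TPM, translocation tumours first. The lowest were Mrpl53, at 2.61 TPM in translocation tumours and 1.32 TPM in Rosa26 tumours, Mrpl23, Mrps10, Mrps36, Mrps5 and Mrpl47. Ranks depended on which length was used. With the principal transcript in place of all exons, Mrpl33 moved to rank 1, against rank 52, and Mrps10 to rank 32, against rank 76, while Mrpl53 stayed last. The median member had 18.8 TPM in translocation tumours, 11.5 TPM in Rosa26 tumours and 20.1 TPM in the muscle. TPM carry the composition of each library, and no test was made between genes.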

How the data were processed

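RNA was measured in 12 mouse samples: 5 translocation tumours, 6 Rosa26 tumours and 1 muscle, grouped by the genotype in the labels. Per the labels' protocols, ribosomal RNA was depleted and the Illumina kit kept strand. The authors deposited raw counts, whole numbers not normalized, for 55536 genes in 1 column per sample, with 0 columns of other samples. Tools named in the submitters' processing notes, with no order, were STAR 2.7.5a, cutadapt, featureCounts, RSEM and DESeq2, with the build mm10. How the counting treated strand and annotation is not given, so reads may be shared between paralogs, pseudogenes and overlapping or antisense genes.

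GENCODE M21 (mm10) gave symbols, gene types, positions and mRNA lengths. The members and gene lists were chosen with earlier results of these data known. The genotypes were compared over the 11 tumours with edgeR 4.0.16 (R 4.3.3), using TMM scaling, filterByExpr (minimum count 10), robust quasi-likelihood tests and Benjamini-Hochberg adjustment over all genes tested. The procedure was tested on data simulated with the same spread for every gene. It recovered 5 of 50 genes changed 2-fold and 43 of 48 changed 4-fold, and called 9 of 16678 unchanged genes. Log2 CPM against muscle used a prior count of 2. Alternatives used DESeq2 1.42.0, limma 3.58.1, other filters and scalings, sex (read from Xist and Y-linked RNA) or muscle markers as a covariate, summed or left-out libraries, and length offsets. Length offsets are, for each library, a lowess curve (span 0.3) on mRNA length of log2 CPM less the gene's mean.

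The genes named were the members called with or without tumour 5, the 6 with the highest and the 6 with the lowest fold change, the 5 highest and 5 lowest against muscle, the 3 highest and 3 lowest per subunit by level per length, and Mrps18a, Mrps18b, Mrps18c, Mrpl58, Mrps36, Mrps12 and Mrpl12. Other lists gave up to 4 members by smallest adjusted p. Depth limits precision most in translocation tumour 2 and Rosa26 tumour 4. The lowest member count in a tumour was 2, and 8 members had under 10 counts in some library.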

Additional observations from a re-analysis of the deposited data

Results flagged for a closer look

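In groups of 5 or 6 tumours, a library far from the others of its group was marked where the gap to its nearest neighbour took up more of the group's range than Dixon's 95% critical value, on log2 CPM for single genes. Chance marks about 1 in 20 groups. Translocation tumour 5 was marked as highest for the summed large subunit genes, at 3429 CPM, and for the summed small subunit genes, at 1449 CPM. Among the named genes it was marked as highest for Mrpl17 (121 CPM), Mrps5 (41.3 CPM), Mrps2 (43.6 CPM), Mrpl28 (171 CPM) and Mrps18b (18.8 CPM). Rosa26 tumour 4 was marked as lowest for Mrps18c (1.05 CPM), Mrpl55 (1.40 CPM) and Mrpl47 (4.02 CPM). The ratio of large to small subunit CPM was marked as highest in Rosa26 tumour 2, at 2.24. Mrps15 was marked as highest in Rosa26 tumour 1, at 18.8 CPM, and Mrpl14 as lowest in translocation tumour 2, at 3.50 CPM, from 8 counts. Over all 78 members, translocation tumour 5 was marked as highest for 21 and Rosa26 tumour 4 as lowest for 13.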

How the results depend on the processing

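No paired analysis was possible because the replicate numbers only follow the order of the samples. Every alternative run kept the count of members called lower at 0. The median log2 fold change stayed above 0, at 0.62 to 1.27 over the alternatives to the fit of all tumours and at 0.66 to 1.20 with each tumour left out in turn, and was 0.36 with length offsets and without tumour 5. The count called higher, 8 with all tumours, was 40 by the DESeq2 Wald test, 43 by limma voom, 2 with no filter, 5 with muscle kept in the fit, 52 with sex and 5 with muscle markers as a covariate, 14 with translocation tumours 2 and 5 summed, 1 with Rosa26 tumours 5 and 6 summed, 4 with length offsets, and 1 to 11 with each tumour left out. Without translocation tumour 5 it was 9, against 26 by DESeq2, 0 with sex as a covariate and 1 with Rosa26 tumours 5 and 6 summed. It was then 1 to 15 with another tumour left out: 1 without translocation tumour 1 or Rosa26 tumour 3, 5 or 6, 3 and 4 without translocation tumours 3 and 4, and 5 and 15 without Rosa26 tumours 1 and 2. Against muscle, CPM on total counts gave 0 members at least 2-fold lower and 16 higher in translocation tumours (TMM scale, 31 and 0). The members' median was reversed to 0.34 there, and in Rosa26 tumours 19 were lower and 1 higher (66 and 0). On total counts the median over all genes was also above the muscle, at 1.23 in translocation and 1.37 in Rosa26 tumours. The share of all genes at least 2-fold higher on total counts is not given, so these counts have no background. On the TMM scale, leaving out tumours gave 31 to 45 lower and 0 to 1 higher in translocation tumours, the 1 without tumour 3. In Rosa26 tumours it gave 64 to 67 lower. Mrps5 and Mrps2 reversed, to -0.12 and -0.30 by limma voom, to -0.15 and -0.30 when Rosa26 tumour 4 and translocation tumours 2 and 5 were all dropped, and without translocation tumour 5. With each tumour left out they ran from -0.12 to 0.48 and from -0.30 to 0.56. Mrps15 reversed to -0.070 with length offsets. The causes were not tested. Mrps26 was called under all 23 alternatives to the fit of all tumours. It was not called without tumour 5 with sex as a covariate, where 0 members were called. Length offsets and the alternatives run without tumour 5 were chosen after seeing the data.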
